A study of Mus musculus with 16 samples.

Results

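The 76 genes that encode the proteins of the cytosolic ribosome were followed in CD8+ T cells sorted from mouse bone marrow. They were taken by symbol from the 24394 gene rows of the count table: the letters Rpl or Rps, then digits, then at most a single letter a, x or y, together with Rplp0, Rplp1, Rplp2 and Rpsa. The set holds 46 genes of the large subunit and 30 of the small subunit. The rule itself uses no measured value, but the set was chosen with earlier results of these data known. Of the 76, 75 passed the filter on low counts that left 14862 genes for testing, and Rpl26 did not. Rows named otherwise, among them Fau, Gnb2l1 and Rps3a1, also encode ribosomal proteins, and these 3 are given beside the set. RNA came from mice in which bone marrow failure had been induced, either left without drug (BMF) or given baricitinib (BAR), which blocks the signalling kinases JAK1 and JAK2. No group was free of marrow failure, and the groups were BMF day 10 (5 libraries), BAR day 10 (5), BMF day 14 (3) and BAR day 14 (3), with days counted from induction. The labels give no strain, age, drug dose or healthy control, and they describe the cells as pooled. No label ties a library to its own animal, so a p-value here sets a difference against library-to-library spread that may be technical.

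A ribosome is built from ribosomal RNA and ribosomal proteins. The small subunit reads the mRNA, and the large subunit joins amino acids and passes the growing chain out through a tunnel. Ribosomal protein mRNAs are among the most abundant in a dividing cell. Most begin with a C followed by an unbroken run of pyrimidines, the 5' terminal oligopyrimidine (TOP) tract, through which the kinase complex mTORC1 and the RNA-binding protein LARP1 control their translation and stability together. T cells enlarge this machinery when they are activated.

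Libraries held 26134894 to 58823116 counts. The sorted population carried its defining markers in all 16 libraries, with Cd8a at 570 to 941 CPM (counts scaled to a common library size) and Cd3e at 738 to 1690, against Cd4 at 0.519 to 5.92. Markers of other cells were present too. The 9 neutrophil markers summed to 2521 to 49290 CPM, against 4486 to 8393 CPM for 7 CD8 T cell markers. Several day 10 libraries stood apart. BMF replicate 5 carried Rn45s, the precursor of ribosomal RNA, at 1.14% of counts, whereas BMF replicates 1 to 4 carried 2.72% to 5.79% and the BAR day 10 libraries 1.21% to 1.42%. At day 14, BAR replicate 2 had the lowest Rn45s share, 0.712%, against 1.28% to 2.51% in the other 5.

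The members' levels were compared per kilobase of the principal transcript, since a longer mRNA gives more reads. Averaged over the 4 groups, 72 of the 76 lay between 186 and 6250 CPM per kb with a median of 1080. Rpl32, a large subunit protein, was at 6250 CPM per kb, Rps18 at 3950 and Rps14 at 3820. The lowest of the 72 was Rpl27a, at 186 CPM per kb. The remaining 4 genes were far lower. Rpl34 had a mean of 38.5 CPM per kb, Rps27 of 7.69, Rpl30 of 7.11 and Rpl26 of 0.0262, and no library held more than 3 reads of Rpl26. All 4 encode core ribosomal proteins, and whether these values follow the levels of the mRNAs was not tested.

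Retrotransposed copies of ribosomal protein genes are common in mammals and can take up or block the counting of their reads. Coding sequences were searched by blastn against annotated processed pseudogenes, which are retrotransposed copies. A member had a median of 5 that matched at least 80% of its coding sequence at 95% identity or more, with a range of 0 to 56. Copies without that annotation were not searched. Rpl26 had 6 such copies, Rps27 had 3, Rpl30 had 12 and Rpl34 had 5. The 56 belonged to Rpl21, which was among the abundant members. The rows Rpl34-ps1 and Rps27rt were at 0 in every library. Multi-mapping reads were handled in a way not given in the sources used here, and a value of any member may hold reads of a copy or lack its own.

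The start of the genes was read from the RefSeq table of promoters (GRCm38.p6), which matched 56 of the 76. A TOP tract was searched on the transcribed strand as C followed by at least 4 bases that are C or T. Read from the annotated first base, it was present in 12 of the 56 (21.43%), against 2.49% of all 27025 promoters in the table. Read from any base within 5 of the start, it was present in 46.43% of members and 18.46% of all. Runs that opened further upstream and reached through these bases were also counted. CCGGAA on either strand, the core of an ETS factor motif, was present in 50% of members against 15.22%, and AAGATGGC, the core of the YY1 motif, in 7.143% against 2.879%. Annotated starts can be several bases from the true start, and a match is only a description of the letters. The starts of 7 members that were lower in BAR at day 10 are shown: Rps12 for the largest fall, and the others as examples picked because they hold a tract within 5 bases of the start. Each runs from 30 bases before to 25 bases into the transcript, 5' to 3' on the gene's strand, and the capitals mark pyrimidine tracts that reach to within 5 bases of the start or lie beyond it.
Rps12, chr10:23787185-23787239, minus strand: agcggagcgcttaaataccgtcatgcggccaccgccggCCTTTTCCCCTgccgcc
Rps24, chr14:24490648-24490702, plus strand: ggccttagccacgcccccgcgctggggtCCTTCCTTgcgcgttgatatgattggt
Rplp2, chr7:141447621-141447675, plus strand: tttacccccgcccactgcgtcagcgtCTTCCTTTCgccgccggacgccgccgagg
Rps21, chr2:180257349-180257403, plus strand: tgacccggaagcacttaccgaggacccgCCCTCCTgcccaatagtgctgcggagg
Rps10, chr17:27635220-27635274, minus strand: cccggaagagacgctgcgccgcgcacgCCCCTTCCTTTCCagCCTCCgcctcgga
Rpl38, chr11:114668550-114668604, plus strand: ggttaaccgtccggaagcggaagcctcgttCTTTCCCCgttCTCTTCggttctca
Rpl13a, chr7:45128721-45128775, minus strand: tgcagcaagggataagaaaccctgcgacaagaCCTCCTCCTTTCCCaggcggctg
The longest of these tracts were 14 bases in Rpl13a and 13 in Rps10. The tract of Rps12 began at base 9 of the annotated transcript, outside the window of 5 bases. Rpl9, Rpl36a and Rps4x, which also fell at day 10, had no tract in that window, so the examples do not stand for all members that fell.

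Together the 76 genes took 4.76% to 7.89% of a library's counts. In BMF at day 10 the share was 7.21%, 7.37%, 7.58%, 7.89% and 7.13% in replicates 1 to 5, a mean of 7.435% ± 0.305 (SD, n = 5). In BAR at day 10 it was 7.49%, 6.02%, 5.94%, 6.71% and 7.15%, a mean of 6.662% ± 0.683 (SD, n = 5). At day 14 the BMF libraries held 7.35%, 7.25% and 6.93%, and the BAR libraries 6.48%, 4.76% and 5.97%. BAR replicates 2, 3 and 4 were below all BMF libraries at day 10, and all 3 BAR libraries were below the 3 BMF libraries at day 14. These sums are given with no test. In bulk RNA, fewer cells with a high content of these mRNAs and less of them per cell cannot be told apart. Of all counts without Rn45s and Lars2, another row that was high in the same day 10 BMF libraries, the means were 8.026% for BMF and 6.801% for BAR at day 10, and 7.423% and 5.876% at day 14.

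**Figure D1:**
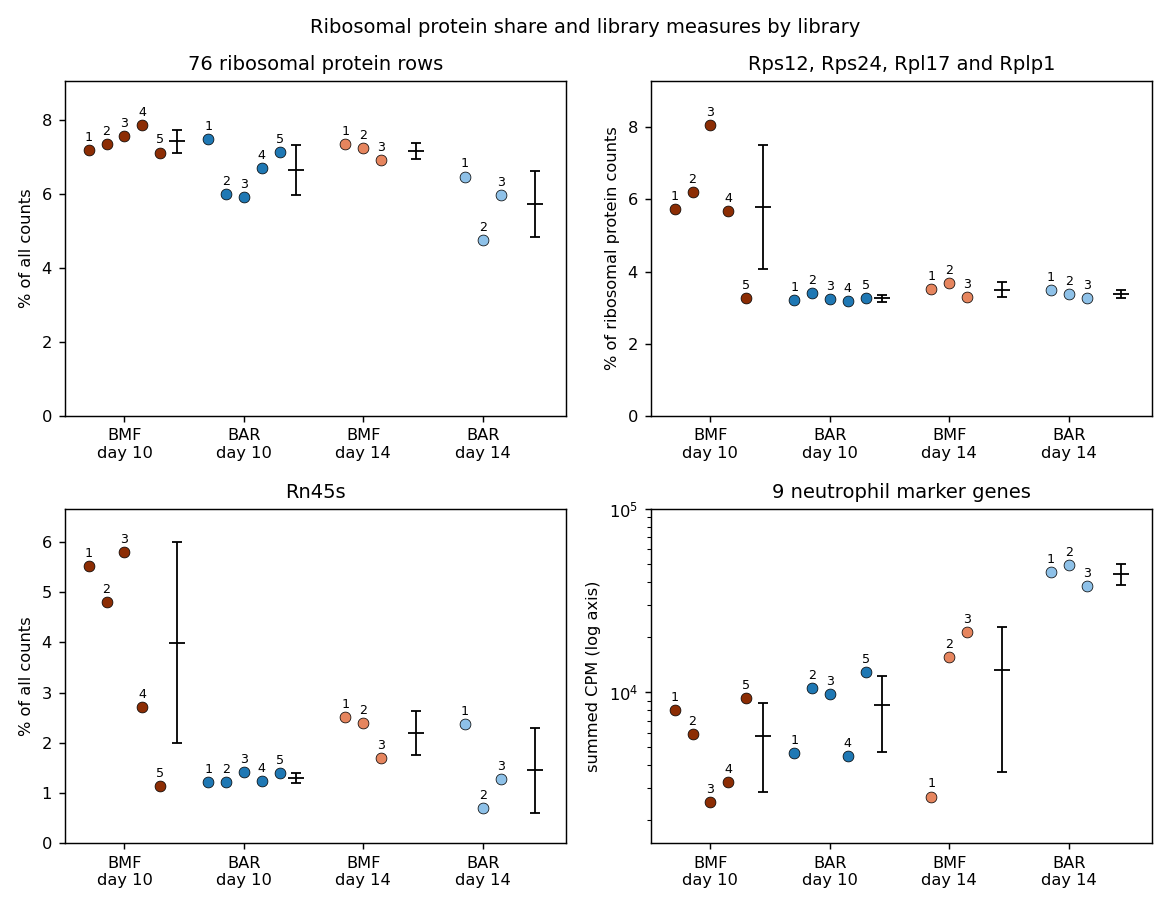
Each point is a library, numbered by replicate, with the group mean and SD as bars (n = 5 per group at day 10, n = 3 at day 14); the panels give the share of all counts on the 76 genes, the share of those counts taken by Rps12, Rps24, Rpl17 and Rplp1, the Rn45s share of all counts, and the summed CPM of 9 neutrophil markers on a log axis. The summed share runs from 4.76% in BAR day 14 replicate 2 to 7.89% in BMF day 10 replicate 4, and the share of the 4 genes within the set is 5.69% to 8.08% in BMF day 10 replicates 1 to 4 and 3.18% to 3.69% in the other 12 libraries.

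At day 10, the comparison of BAR with BMF asks what the drug changed while marrow was being lost. In the test over all genes (edgeR quasi-likelihood, Benjamini-Hochberg adjusted p under 0.05), 29 of 75 members fell and 1, Rpl34, rose. Over all 14862 genes 7.94% were called lower and 6.49% higher, so the share of members called lower was above the background and the share called higher was below it. The median log2 fold change of the members was -0.27, against 0.00 over all genes, and 67 of 75 were below 0. The falls divided unevenly within the set, with log2 values from -1.66 to 0.07 over the 72 abundant members (SD 0.309).

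The largest fall was in Rps12, a small subunit protein (chromosome 10, 23785183 to 23787275, minus strand, GRCm38). Its levels were 807, 941, 1519, 1029.6 and 323 CPM in BMF replicates 1 to 5 and 332, 262, 253.5, 288 and 329.8 CPM in BAR replicates 1 to 5. BMF replicates 1 to 4 were all above the highest BAR library, while BMF replicate 5 lay inside the BAR range. The log2 fold change was -1.66 (SE 0.295, edgeR adjusted p = 0.00435). Rps24, a small subunit protein that is mutated in human Diamond-Blackfan anaemia, was at 1525, 1653, 2195, 1494 and 745 CPM in BMF and 834, 611, 599.7, 704 and 738 in BAR (log2 -1.13, SE 0.215, adjusted p = 0.00503). Rpl17, which lies at the opening of the exit tunnel, was at 1015, 1131, 1502, 1207 and 640.3 CPM in BMF and 642, 546, 458, 572.5 and 606 in BAR (log2 -0.96, SE 0.170, adjusted p = 0.00275). In each of these genes BMF replicate 3 was the highest library and BMF replicate 5 overlapped BAR.

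The stalk of the large subunit, which recruits elongation factors, is formed by Rplp0 with Rplp1 and Rplp2. Rplp1 was at 899, 991, 1297, 972 and 528 CPM in BMF and 564, 454, 428, 516 and 558 in BAR, and it fell (log2 -0.90, SE 0.176, adjusted p = 0.00530). Rplp2 fell too (log2 -0.68, SE 0.155, adjusted p = 0.0112), whereas Rplp0, their anchor on the ribosome, had a log2 value of -0.22 that did not pass (adjusted p = 0.139). Rplp0 ranged from 1914 to 2299 CPM in BMF and from 1509 to 2047 in BAR. The members of this complex thus had unequal values, but differences between genes were not tested.

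In 3 members every BAR library was below every BMF library at day 10, and the background for such a separation was 4.11% of genes, so that count is near the background, and in 0 was every BAR library above, against 3.80%. Rps4x, the X-linked small subunit protein, was at 622, 619.6, 676, 787 and 495 CPM in BMF and 491, 391, 414, 455 and 444 in BAR (log2 -0.54, SE 0.0996, adjusted p = 0.00254). Rpl38, a small protein of the large subunit known in mice for its role in the translation of Hox mRNAs, was at 621 to 1062 CPM in BMF and 472 to 612 in BAR (log2 -0.57, SE 0.123, adjusted p = 0.00647). Rpl5 carries the 5S ribosomal RNA into the large subunit together with Rpl11, and the pair can bind Mdm2 when assembly fails. It was at 868 to 996 CPM in BMF and 618 to 858 in BAR (log2 -0.33, SE 0.0840, adjusted p = 0.0169). Its partner Rpl11 had a log2 value of -0.11 (adjusted p = 0.64), with BMF at 949 to 1076 CPM and BAR at 809.7 to 1126 CPM.

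Further members with known roles fell at day 10 as well. Rpl13a, known in human cells as part of an interferon-gamma-activated inhibitor of translation, was at 2995, 3299, 3488, 3239 and 2356 CPM in BMF and 2413, 1941, 1746, 2219 and 2409 in BAR (log2 -0.52, SE 0.114, adjusted p = 0.00772). Rpsa, the small subunit protein also described as a laminin receptor, was at 1415 to 2014 CPM in BMF and 1026 to 1491 in BAR (log2 -0.53, SE 0.116, adjusted p = 0.00803). For both genes, BMF replicate 5 lay within or beside the BAR values. Rpl9, of the large subunit, fell with a log2 value of -0.77 (adjusted p = 0.00437). Rpl36a, X-linked, Rps26, on the mRNA exit side, and Rpl41, the shortest of the proteins, fell as well, with log2 values of -0.56, -0.69 and -0.34. Values that did not pass included Rpl22, whose loss in mice impairs alpha-beta T cell development (log2 -0.42, adjusted p = 0.0598), Rps27a, made as a fusion with ubiquitin (-0.41, adjusted p = 0.0662), Rps19, the gene most often mutated in human Diamond-Blackfan anaemia (-0.26, adjusted p = 0.0715), Rps6, the substrate of the S6 kinases (0.07, adjusted p = 0.624), Rpl10 (-0.11), Rpl39 (-0.30), Rps14 (-0.13) and Rps28 (-0.23).

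By role, 17 of 45 large subunit members and 12 of 30 small subunit members fell at day 10, with medians of -0.30 and -0.24. A list of 18 genes mutated in human Diamond-Blackfan anaemia held 17 that could be tested. Of these 6 fell (median -0.23), beside 29 of all 75 members (median -0.27). Of the members with the ETS motif at their promoter the median was -0.13 (n = 26), and of those without it -0.36 (n = 27), while at day 14 the medians were -0.36 and -0.35. With a TOP tract at the annotated start it was -0.34 (n = 11), and without -0.28 (n = 42; -0.285 before rounding), and at day 14 -0.31 and -0.36. Members with a small nucleolar RNA annotated inside the gene on the same strand had a median of -0.31 (n = 28) and the others -0.29 (n = 44). Across the 72 abundant members, Spearman's rho of the fold change with the mean level was 0.377 at day 10 and -0.06 at day 14, and at day 10 it was 0.213 with transcript length and 0.0208 with the number of copies. These are descriptions across genes of the same libraries.

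The day 10 libraries of each arm were not alike in these genes. BMF replicate 5 lay within the range of the 5 BAR libraries in 70 of 75 members and was the lowest BMF library in 45. BMF replicates 1 to 4 were all above all BAR libraries in 33 members, against 11.2% of all genes, and BAR replicates 2 and 3 were the lowest pair of the 10 in 67. Without BMF replicate 5 the test called 36 lower and 1 higher. The count was more than 1.5 times smaller without BMF replicate 3 (16), BMF replicate 4 (17) or BAR replicate 3 (18). With the Rn45s share as a covariate 0 members were called at a median of -0.10. In BMF replicates 1 to 4 that share lay above all BAR libraries, so this fit can hardly separate it from the drug. Among BMF replicates 1 to 4, replicate 4 had the lowest Rn45s share, 2.72%, and the largest share of counts on the members, 7.89%. The part of Rn45s in the result was not tested. Scaling to library totals alone moved the median of all genes to 0.11 and that of the members to -0.16, with 20 lower and 1 higher.

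**Figure D2:**
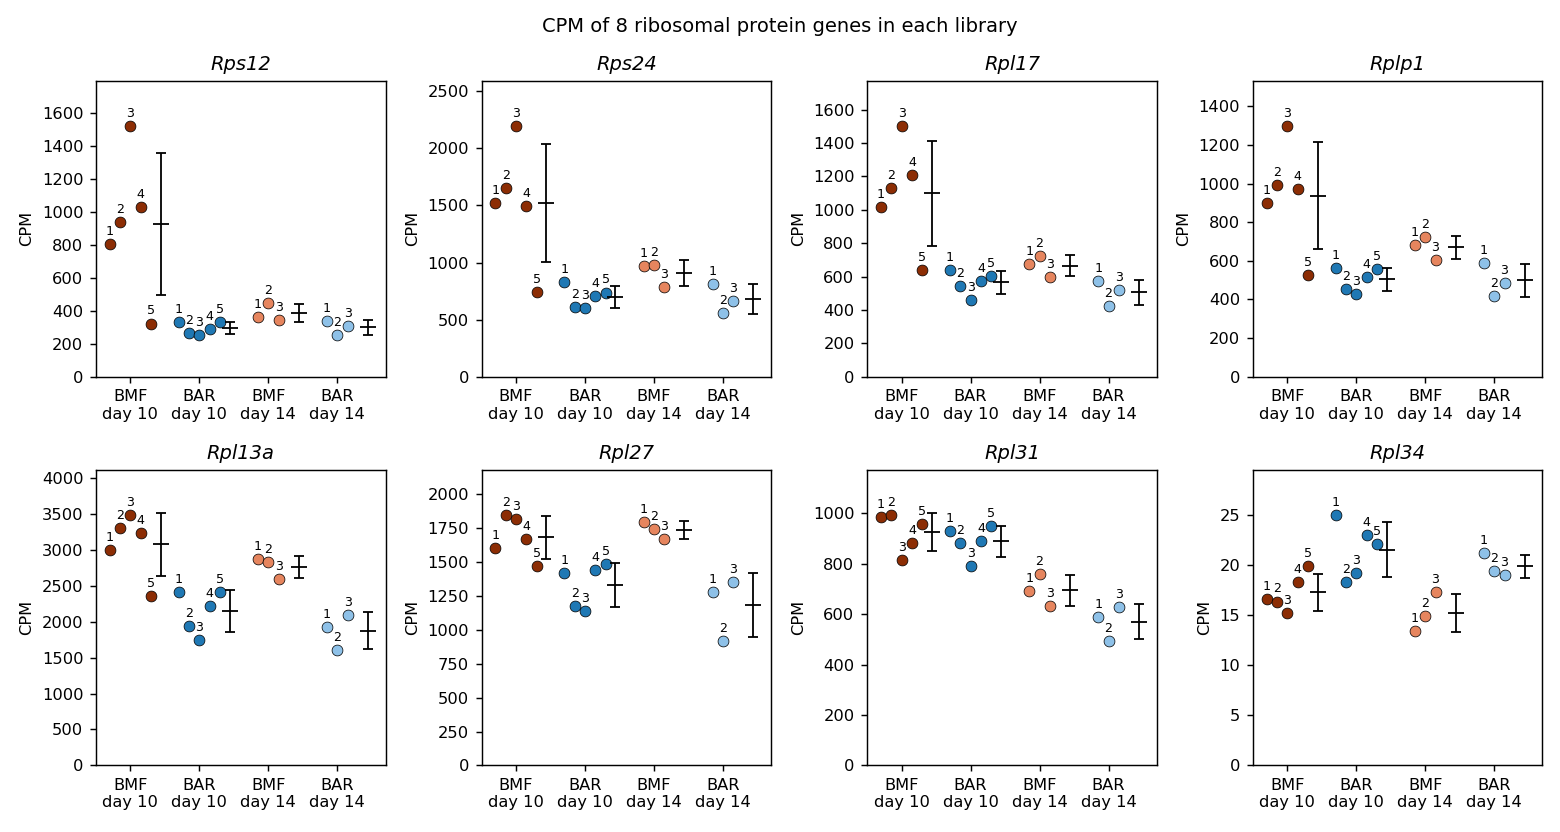
CPM of 8 ribosomal protein genes in each library, numbered by replicate, with the group mean and SD as bars (n = 5 per group at day 10, n = 3 at day 14). In Rps12, Rps24, Rpl17 and Rplp1, BMF day 10 replicates 1 to 4 lie above all other libraries and replicate 5 among the BAR values; Rpl13a and Rpl27 are lower in BAR at both days, Rpl31 is lower at day 14 than at day 10 in both arms, and Rpl34 is at 13.4 to 25.01 CPM throughout.

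Markers of other cells were also counted at day 10. Of the B cell and plasma cell list, 8 of 9 genes were higher in BAR (summed 31.1 to 372 CPM, against 10.8 to 23.4 in BMF), and of the erythroid list 4 of 5 tested (summed 145.9 to 385.7 CPM against 29.98 to 169.9), while Hbb-bs, Hbb-bt, Hba-a1 and Hba-a2 were at 0 in all libraries. Of 9 neutrophil markers edgeR called 0, and 1 had an unadjusted p under 0.05 (summed 4483 to 12930 CPM in BAR and 2521 to 9274 in BMF; none of the 9 was at 0 throughout). Of 9 monocyte and macrophage markers 5 were higher and 1 lower, and of 8 dendritic cell markers 1 was higher and 1 lower. With the neutrophil sum as a covariate, 19 members were called lower at day 10. The part of the other markers in the result was not tested.

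At day 14 the same comparison gave a smaller number of calls and a more even shift. Of 75 members 17 fell and Rpl34 rose again, where 12.2% of all genes were called lower and 12.9% higher. The median log2 fold change was -0.36 against -0.01 over all genes. All 72 abundant members were below 0, from -0.60 to -0.06, with an SD of 0.127 across members. In 51 of 75 members every BAR library was below every BMF library, against 21.5% of all genes, and in 1 member every BAR library was above, against 21.8%.

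Rpl27, a large subunit protein mutated in human Diamond-Blackfan anaemia (chromosome 11, 101442298 to 101445529, plus strand), had the smallest adjusted p. It was at 1798, 1745 and 1669 CPM in BMF and 1282, 916 and 1350.0 in BAR (log2 -0.55, SE 0.138, adjusted p = 0.0074). Rpl13a was at 2875, 2826 and 2589 CPM in BMF and 1933, 1599.5 and 2098 in BAR (log2 -0.56, SE 0.147, adjusted p = 0.0104). The groups did not overlap in either gene, and BAR replicate 2 was the lowest library in each. Rps20, a small subunit protein, was at 1009.6, 1349 and 1042 CPM in BMF and 845, 754 and 848 in BAR (log2 -0.47, SE 0.137, adjusted p = 0.0175). In Rps20 too the groups were apart.

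The order of the genes differed from that at day 10. Of the 5S particle, Rpl11 fell at day 14, from 938, 982 and 849 CPM in BMF to 799.8, 406 and 669 in BAR (log2 -0.56, SE 0.178, adjusted p = 0.0278), and Rpl5 did not pass (log2 -0.17, adjusted p = 0.265). Of the stalk 0 of 3 passed and 1 had an unadjusted p under 0.05, with log2 values of -0.31 for Rplp0, -0.42 for Rplp1 and -0.34 for Rplp2. Rps19 (log2 -0.35, adjusted p = 0.0405) and Rps28 (-0.48, adjusted p = 0.0352) fell, both small subunit proteins mutated in human Diamond-Blackfan anaemia. Rps4x had a log2 value of -0.12, Rpl22 of -0.47, Rps27a of -0.26, Rps6 of -0.20 and Rpl39 of -0.58, and their adjusted p ran above the threshold. By subunit, 9 of 45 large and 8 of 30 small members fell, with medians of -0.34 (large; -0.335 before rounding) and -0.36 (small).

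The day 14 result leaned on BAR replicate 2, the lowest of the 6 libraries in 69 of 75 members. Without it 1 member was called (median -0.23, 70 of 75 below 0). The count was 34 without BAR replicate 1, 9 without BAR replicate 3, 4 without BMF replicate 1 and 3 without BMF replicate 2. DESeq2 called 31 lower and 1 higher. Other cells also differed between the arms at this day. The 9 neutrophil markers summed to 37700 to 49290 CPM in BAR and 2702 to 21410 in BMF, with 0 of 9 called, 4 of 9 at an unadjusted p under 0.05 and none at 0 throughout, and the erythroid sum was 592.6 to 1163 CPM against 11.8 to 22.4, with 5 of 5 tested genes higher and the 4 globin rows at 0. Of 9 monocyte and macrophage markers 3 were higher and 3 lower, of 9 B cell and plasma cell markers 1 was higher, and of 8 dendritic cell markers 1 was lower. Of the CD8 T cell markers 5 of 7 fell (summed 5446 to 6164 CPM in BAR and 6944 to 8393 in BMF). With the neutrophil sum as a covariate 0 members were called and the median was -0.18, with 65 of 75 below 0. That sum did not overlap between the arms at this day, so this fit cannot separate it from the drug. How much of the members' values came from these other cells was not tested.

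**Figure D3:**
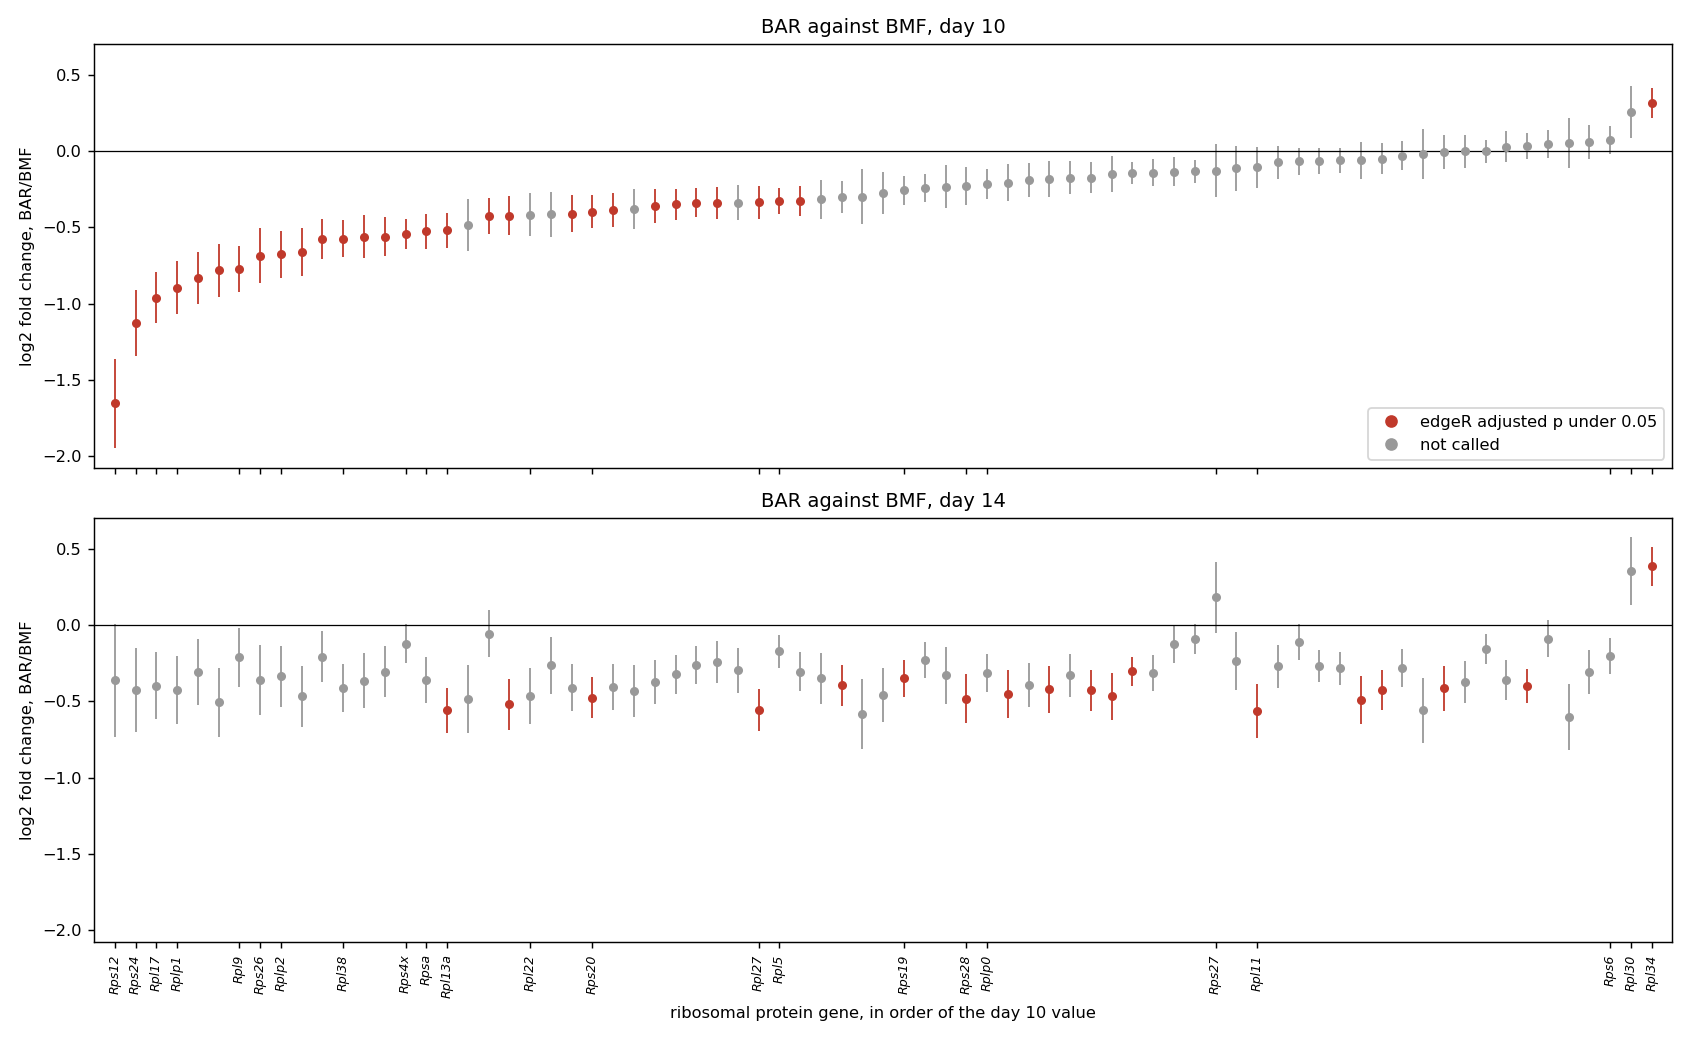
Log2 fold change of BAR against BMF for the 75 tested genes at day 10 (top) and day 14 (bottom), in the order of the day 10 values on both panels, with some of the genes named in the text labelled; bars are the SE and red marks an edgeR adjusted p under 0.05. Day 10 runs from -1.66 for Rps12 to 0.32 for Rpl34, while at day 14 all but Rps27, Rpl30 and Rpl34 lie between -0.60 and -0.06.

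The effects at the 2 days came from different libraries and could be laid side by side. Of the members lower at day 10 and at day 14, 4 were shared, Rpl27, Rps20, Rpl13a and Rps13. They are 13.8% of the day 10 list and 23.5% of the day 14 list. Both shares were under those of all 75 members, where 17 were lower at day 14 and 29 at day 10. Across the 72 abundant members Spearman's rho of the 2 log2 fold changes was 0.121. A test of the difference of the BAR effect between the days called 0 of 75 members, where it called 10.3% of all genes (5.33% lower). An unadjusted p under 0.05 was reached by 10 members, and DESeq2 called 2. Rps12 had a log2 difference of 1.29 (SE 0.472, adjusted p = 0.100; 1.295 before rounding), and Rps4x of 0.42 (SE 0.162, adjusted p = 0.103). The effects at the 2 days are therefore not shown to differ for any member. Without BMF day 10 replicate 5 this test called 8 members, without BAR day 14 replicate 1 it called 3, and without BMF replicate 4, BAR replicate 2 or BAR replicate 3 of day 10 it called 1 each.

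Rpl34 went against the rest at both days. It was at 16.6, 16.4, 15.2, 18.3 and 19.9 CPM in BMF and 25.01, 18.3, 19.2, 23.0 and 22.1 in BAR at day 10 (log2 0.32, SE 0.100, adjusted p = 0.0428). At day 14 it was at 13.4, 14.9 and 17.3 CPM in BMF and 21.2, 19.4 and 19.0 in BAR (log2 0.39, SE 0.130, adjusted p = 0.0364). The groups overlapped at day 10 and not at day 14. Its row is 1 of the 4 far below the other members, for a reason that was not tested, although it held 415 to 1488 reads in each library. The calls lay close to the threshold: the edgeR adjusted p was 0.0524 at day 10 and 0.0615 at day 14 with no filter on low counts. Rpl30, another of the 4 low rows, had log2 values of 0.26 and 0.36 that did not pass.

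From day 10 to day 14 in BMF mice, 6 members rose and 16 fell, where 17.6% of all genes were called higher and 20.9% lower, so the members called lower were near the background and those called higher below it. With library totals alone 4 rose and 26 fell. The median was -0.11, against -0.05 over all genes. Rps6 was at 935, 913, 849.8, 966 and 1046 CPM at day 10 and 1218, 1219 and 1264 CPM at day 14 (log2 0.39, SE 0.106, adjusted p = 0.00835). Its days did not overlap. Rpl32, Rpl13 and Rpl35, all of the large subunit, rose with log2 values of 0.41, 0.33 and 0.24. Rpl5 fell from 868 to 996 CPM at day 10 to between 669.6 and 682 CPM at day 14 (log2 -0.46, SE 0.0984, adjusted p = 0.00161). Rpl31, beside the exit tunnel, fell from 815 to 994 CPM to between 633 and 758 CPM (log2 -0.41, SE 0.0983, adjusted p = 0.00340). Rpl35a (log2 -0.54), Rpl17 (log2 -0.72) and the almost empty row Rps27 (log2 -0.83) were lower as well. In all, 12 members were higher in every day 14 library than in any of day 10, against 17.1% of genes, and 10 were lower, against 19.6%. The count was 13 without BMF day 10 replicate 3, 13 without BMF day 14 replicate 1 or replicate 2 and 8 without BMF day 14 replicate 3.

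Under baricitinib, 0 members rose and 7 fell from day 10 to day 14 by edgeR (DESeq2 called 1 higher, and 13 members in either direction had an unadjusted p under 0.05), where 19.2% of all genes were called higher and 19.8% lower, so both shares were under the background. The median was -0.12, against -0.04 over all genes. Rpl31 was at 929, 884, 792, 888 and 948 CPM at day 10 and 589, 493 and 629.6 CPM at day 14 (log2 -0.64, SE 0.0991, adjusted p = 0.000113). The days did not overlap. Rpl11 (log2 -0.61, adjusted p = 0.0072), Rpl23 (-0.44, adjusted p = 0.0135) and Rpl5 (-0.30, adjusted p = 0.0203) fell too. In total 5 members were lower in every day 14 library, against 21.2% of genes, and 0 were higher, against 20.1%. The count was 11 without BAR day 10 replicate 2 or replicate 3, 20 without BAR day 14 replicate 1 and 3 without BAR day 14 replicate 2. With the neutrophil sum as a covariate 1 member was called and the median was 0.07, but in BAR that sum did not overlap between the days. With library totals alone 22 fell and the median of all genes moved to -0.15. Each of the 4 groups serves in 2 of these comparisons, so the time and drug effects share libraries and are only set side by side. For Rps12 the log2 change with time was -1.27 in BMF and 0.03 in BAR.

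**Figure D4:**
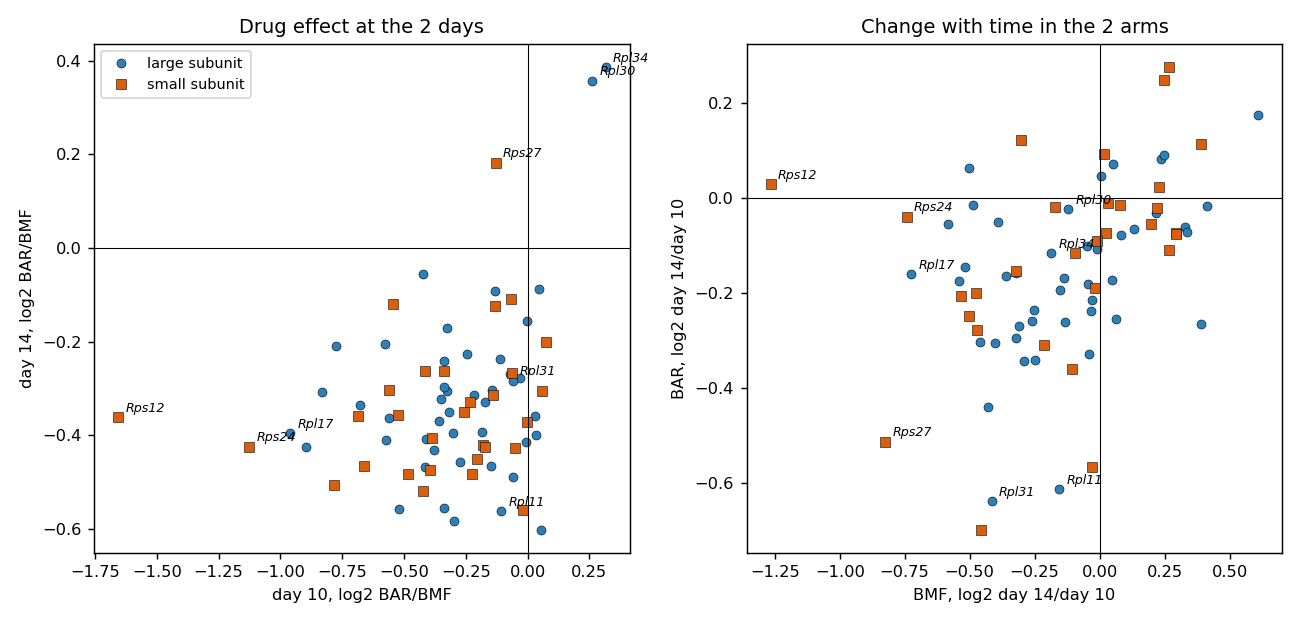
Left, log2 fold change of BAR against BMF at day 10 (x) and day 14 (y); right, log2 change from day 10 to day 14 in BMF (x) and BAR (y). Each point is 1 of the 75 tested genes, circles for the large and squares for the small subunit; Rps12, Rps24 and Rpl17 lie far to the left on both panels, the 72 abundant genes lie below 0 on the day 14 axis, and Rpl31 and Rpl11 lie among the lowest on the BAR time axis.

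Of the rows named otherwise, Gnb2l1, the scaffold protein RACK1 of the small subunit, was at 936 ± 155 CPM in BMF and 661 ± 74.2 in the BAR libraries of day 10 (means and SD of 5 libraries; log2 -0.50, SE 0.108, edgeR adjusted p = 0.00673). Rps3a1 (log2 -0.42, adjusted p = 0.038) and Fau (-0.29, adjusted p = 0.0499) fell at day 10 as well.

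Several paralogues of members were also counted. Rpl7l1, a factor of large subunit assembly, was higher in BAR at both days, at 178 ± 13.9 CPM in BMF and 216 ± 20.9 in BAR at day 10 (log2 0.28, SE 0.0766, edgeR adjusted p = 0.0242) and at 204 ± 6.18 and 249.6 ± 22.9 CPM at day 14 (log2 0.29, SE 0.0988, adjusted p = 0.0361). Rps4l, near 1 to 3 CPM, rose at day 14 (log2 1.25, adjusted p = 0.00669), and 5 of the 7 tested paralogues passed at neither day. Rpl22l1, which can take the place of Rpl22, was at 319 ± 46.2 CPM in BMF and 251 ± 39.1 in BAR at day 10 (log2 -0.35, adjusted p = 0.102).

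Other mRNAs that carry a TOP tract, mostly translation factors, were listed separately. Of 22, 12 fell and 0 rose at day 10 (median -0.29), a share called lower above the background of 7.94%. Eef1b2, a subunit of the exchange factor for elongation factor 1, was at 704 ± 136 CPM in BMF and 455 ± 38.8 in BAR (log2 -0.63, SE 0.124, edgeR adjusted p = 0.00399). Tpt1, the translationally controlled tumour protein, was at 997 ± 272 CPM and 581 ± 58.4 CPM (log2 -0.78, SE 0.157, adjusted p = 0.00545), and Vim, the intermediate filament protein vimentin, at 564 ± 74.9 CPM and 418 ± 40.0 CPM (log2 -0.43, SE 0.0949, adjusted p = 0.00779). At day 14, 1 of the 22 fell, Eef2, the translocase of the ribosome (log2 -0.27, SE 0.0955, adjusted p = 0.0483), with a median of -0.18, a share called lower that was under the background of 12.2%. With the Rn45s share as a covariate, 0 of the 22 were called at day 10 and the median was -0.17. This fit can hardly separate that share from the drug.

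The ribosome of mitochondria is built from other proteins, encoded by 77 rows of which all were tested. Of these 3 rose and 2 fell at day 10 (median 0.07), and 6 rose and 1 fell at day 14 (median 0.09), both under the backgrounds. Their medians were above 0 at both days, where the medians of the cytosolic set were below 0. A test of the difference between the sets was not run. Of 8 genes listed as dedicated chaperones of ribosomal proteins, 1 rose and 0 fell at day 10, where 6.49% of all genes were called higher. At day 14, 2 rose and 1 fell, where 12.9% were called higher and 12.2% lower. Grwd1, which binds Rpl3, rose at day 10 (31.7 ± 2.74 CPM in BMF and 40.1 ± 4.85 in BAR, log2 0.34, SE 0.0989, edgeR adjusted p = 0.0299) and at day 14 (log2 0.40, adjusted p = 0.028). Ltv1, a small subunit assembly factor, rose at day 14 (log2 0.37, adjusted p = 0.00618), and Pdcd2, which escorts Rps2, fell (log2 -0.24, adjusted p = 0.049).

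Of 21 tested genes of mTORC1 signalling and LARP1, 0 rose and 3 fell at day 10, where 6.49% of all genes were called higher and 7.94% lower. At day 14, 3 rose and 7 fell, where 12.9% were called higher and 12.2% lower. Ddit4, an inhibitor of mTORC1 also called REDD1, fell at both days, from 105 ± 15.5 CPM to 59.9 ± 9.24 CPM at day 10 (log2 -0.81, SE 0.119, edgeR adjusted p = 0.000535) and from 85.8 ± 12.1 CPM to 50.2 ± 6.56 CPM at day 14 (log2 -0.77, SE 0.154, adjusted p = 0.00165). Pdcd4, an inhibitor of the initiation factor eIF4A, fell at both days (log2 -0.51 and -0.73, adjusted p = 0.00835 and 0.00171). Larp1 fell at day 10 (195 ± 21.7 CPM in BMF and 162 ± 13.4 in BAR, log2 -0.27, adjusted p = 0.0284) and had a log2 value of -0.03 at day 14. Depdc5, of a complex that restrains mTORC1, fell at day 14 (log2 -0.58, SE 0.107, adjusted p = 0.000931). The members of this list that fell are inhibitors as well as components of the pathway, and mRNA levels do not show its activity.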

How the data were processed

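The deposited table holds whole-number counts for each gene symbol and library, unnormalized. The submitters' processing notes name HISAT2 2.0.5 and mm10. How reads were counted, by strand and with several matches, is not given in the sources used here; overlapping genes cannot be told apart without strand. Of 24421 rows, 27 with dates for symbols (0.234% to 0.293% of counts) were left out.

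Counts of all 16 libraries were fitted in R 4.3.3 with edgeR 4.0.16: filter on low counts by group, TMM scaling, robust quasi-likelihood F-tests with 1 coefficient for each group, Benjamini-Hochberg over 14862 genes, threshold 0.05 (common biological coefficient of variation 0.198). CPM use TMM-scaled totals, with SD over libraries. SE is the log2 fold change over the square root of F. DESeq2 1.42.0 was an alternative. The procedure was tested on simulated data. Transcripts, positions and copies came from GENCODE vM21 (blastn 2.17.0), promoters from RefSeq GRCm38.p6. Small nucleolar RNAs were matched by position.

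Members, lists and tests were chosen with earlier results of these data known. Named members are, per comparison, the 5 called higher and 5 called lower of smallest adjusted p, members chosen for their roles and those failing the filter. Other genes come from the lists, at most 3 called per list and comparison. Rpl26, Rps27, Rpl30 and Rpl34 are named for their low counts. The share of Rps12, Rps24, Rpl17 and Rplp1, and the members whose sequences are printed, were chosen after values were seen. Some genes that the rule names are not reported here.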

Additional observations from a re-analysis of the deposited data

Results flagged for a closer look

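In the 5 BMF libraries of day 10, replicate 4 was set apart from the others as the highest in 7 genes by Dixon's test for a value far from its group. Rpl37a was at 934 CPM there and at 790 to 803 CPM in the other 4 libraries. Rps23 was at 1398 CPM against 1127 to 1179, and Rplp0 at 2299 CPM against 1914 to 1990. Rpl6 was at 1013 CPM against 845 to 881, Rps16 at 771 CPM against 669 to 696, Rpl29 at 249 CPM against 185 to 203, and Rpl10 at 665 CPM against 524 to 554. These are 7 of 154 groups of 5 examined, and chance flags about 1 in 20. The same library had the largest summed share of the set, 7.89% of counts.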

How the results depend on the processing

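The median fold change of the tested members stayed below 0 at both days under every alternative run, and the counts of calls moved. At day 10 (30 called) the count was 0 with the Rn45s share as a covariate, 0 without the 3 BMF libraries richest in Rn45s, 0 in BMF 4 and 5 against BAR 1, 4 and 5, 19 with neutrophil markers as a covariate and 0 without BMF replicates 1 to 4. At day 14 (18 called) it was 32 with DESeq2, 6 with only the groups compared, 5 with the Rn45s covariate and 0 with the neutrophil covariate. For BMF over time (22 called) it was 3 without the Rn45s-rich libraries, 37 with BMF 1 to 3 and BAR 2 and 3 as the day 10 libraries, 4 with the rest, 14 with the neutrophil covariate and 0 without BMF 1 to 4, where Rpl17 turned to 0.0704. For BAR over time (7 called) it was 22 with library totals, 12 with DESeq2, 12 with Rn45s, 14 with BMF 4 and 5 and BAR 1, 4 and 5, and 1 with neutrophil markers. For the difference between days (0 called) it was 1 with totals, 2 with DESeq2, 7 with BMF 1 to 3 and BAR 2 and 3, and 1 with neutrophil markers. Leaving out a replicate gave 16 to 37, 1 to 34, 8 to 32, 3 to 20 and 0 to 8 calls in these 5 comparisons. The share of all genes called under each alternative is not set beside these counts, here or above. The counts therefore do not show whether the members moved apart from all genes. Without Rn45s and Lars2 the summed share was 8.026% in BMF day 10 and 7.423% in BMF day 14. The cause was not tested.

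The neutrophil sum did not overlap between the arms at day 14, nor between the days in BAR. Its covariate cannot be separated from the drug or from time in those comparisons. At day 10 the Rn45s share of BMF replicates 1 to 4 lay above all BAR libraries. The Rn45s covariate can therefore hardly be separated from the drug there. The neutrophil covariate and the set without BMF replicates 1 to 4 were chosen after seeing the data. That set leaves BMF replicate 5 as a lone library, assumed to vary like the other groups, so its counts of 0 say nothing about stability. The division of the day 10 libraries was taken from earlier results of these data and coincides with levels of the members, so it is no independent check. Of the values of single genes under an alternative, 395 kept their call and direction, 110 lost the call and 1 reversed. In the comparisons over time the median of the members changed sign under some alternatives, to 0.11 in BMF without replicates 1 to 4, and to 0.08 in BAR with BMF 1 to 3 and BAR 2 and 3. No paired analysis was possible because replicate numbers follow the order of deposition and pair no libraries. Depth did not limit the abundant members, and the rows Rpl26, Rps27 and Rpl30 rested on few reads.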

Other observations

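Rows for copies of ribosomal protein genes gave further values. Rps15a-ps6, a pseudogene row, was at 63.5, 80.7, 88.2, 52.2 and 19.1 CPM in BMF and 21.5, 15.8, 17.7, 17.9 and 18.4 CPM in BAR at day 10 (log2 -1.73, SE 0.305, edgeR adjusted p = 0.00414). BMF replicates 1 to 4 were above all BAR libraries and replicate 5 lay among them, as for Rps12. Rpl14-ps1 was at 259.8 to 389.6 CPM in BMF and 281.7 to 430.0 CPM in BAR at day 10, with a log2 value of 0.19 (adjusted p = 0.482). Rpl37rt, a retrotransposed copy by its symbol, fell at day 14 (log2 -0.54, SE 0.156, adjusted p = 0.0176), where Rpl37 also fell (log2 -0.41, adjusted p = 0.0477). These rows were named after their values were seen.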
